A study of Mus musculus with 21 samples.

Results

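The nuclear genes of oxidative phosphorylation were followed through a nascent RNA experiment on mouse cortical cultures. Members were chosen by name: every gene of the whole-gene count table whose symbol began with Nduf followed by a, b, c, s or v, with Uqcr, with Cox and a digit from 4 to 8 and a letter, or with Atp5, and the 4 genes Sdha to Sdhd, leaving out names ending in Rik, -ps or os. This gave 94 of the 24984 genes in the table, of which 39 were complex I genes, 8 complex I assembly factors (the Ndufaf genes), 4 complex II genes, 8 complex III genes, 18 complex IV genes and 17 complex V genes. Of the 94 members, 88 had enough reads to be tested.

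Bromouridine is taken up into RNA as it is made, so sequencing the RNA that carries it measures recent transcription rather than stored message. Cortical cultures from CD1 mice were used on day 17 in vitro and were preincubated for 30 min with the solvent DMSO or with 25 µM MM401, a peptide-like compound that blocks the binding of the histone methyltransferase MLL1 to WDR5. They then received 40 µM bicuculline, which blocks inhibitory GABA-A receptors and so raises network activity, or water, and every culture was given 2 mM bromouridine for the final 30 min. There were 7 groups, with 3 biological replicates of mixed sex in each. After DMSO there was water at 4 h, and bicuculline at 1 h and 4 h. After MM401 there was water and bicuculline, each at both times. One MM401 water library at 4 h was left out because it held 316741 reads, 0.503% of the median library, so that group had 2 libraries. DMSO with water at 1 h is not analysed here, and the 1 h bicuculline group in DMSO is therefore set against water at 4 h, where treatment and time cannot be told apart. The titles number the samples in sets by replicate, but nothing in the labels says that a set came from one culture.

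The inner mitochondrial membrane carries 4 electron transfer complexes and the ATP synthase, complex V. Complex I takes electrons from NADH and complex II from succinate, ubiquinone passes them to complex III, and cytochrome c carries them to complex IV, where oxygen is reduced. The proton gradient made on the way drives ATP synthesis, on which neurons rely heavily for ion pumping and synaptic transmission. All subunits of complex II and most subunits of the other complexes are encoded in the nucleus, and the rest are made inside the mitochondrion from its own DNA.

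The 20 libraries used held 49886348 to 87939384 reads assigned to genes, and the members together took 64052 to 155394 of them, or 0.128% to 0.209%. The treatment acted in both pretreatments: all 6 activity-induced genes chosen as a check, among them Fosb and Npas4, rose in each of the 4 comparisons of bicuculline with water. Markers of the cell types in such cultures moved as well, given in the order 1 h and 4 h in DMSO, then 1 h and 4 h under MM401. Of 6 neuron markers 3, 4, 3 and 3 rose and 1 fell each time, and of 5 astrocyte markers 2, 0, 4 and 2 rose and 1, 0, 0 and 0 fell. Of 5 oligodendrocyte lineage markers 2, 3, 1 and 1 rose, of 5 microglia markers 0, 1, 0 and 3, and of 3 fibroblast or mural markers 0, 1, 1 and 1, with none lower in these 3 lists. The 2 tested of 3 endothelial markers did not pass. The neuron markers summed to 3361 to 4352 CPM (reads of a gene scaled to library size) in DMSO with water, 4351 to 4851 after 1 h of bicuculline and 5113 to 5478 after 4 h. Under MM401 they summed to 3453 to 3702 with water against 4220 to 5221 CPM at 1 h, and to 4056 to 4171 against 4503 to 5027 CPM at 4 h. The astrocyte markers summed to 1090 to 1545 CPM in DMSO with water, which overlapped 1485 to 1626 after 1 h and 1272 to 1401 after 4 h. Under MM401 their sums did not overlap, at 1048 to 1302 with water against 1534 to 1607 CPM at 1 h and 1061 to 1169 against 1264 to 1340 CPM at 4 h. At 4 h the microglia markers summed to 26.03 to 30.1 with water against 31.1 to 36.6 CPM in DMSO, and to 25.1 to 28.5 against 35.3 to 39.9 CPM under MM401. The oligodendrocyte lineage markers summed to 137 to 154 against 165 to 178 CPM in DMSO, and to 148 to 156 against 174 to 183 CPM under MM401. The fibroblast or mural markers at 4 h summed to 8.14 to 8.81 with water against 9.23 to 10.4 CPM in DMSO and to 7.21 to 7.36 against 8.85 to 10.5 CPM under MM401, without overlap. The endothelial markers summed to 1.44 to 3.01 CPM over the groups at 4 h, with overlap between water and bicuculline. Apart from 1 endothelial marker in each of 3 groups, none of these markers was at 0 throughout a group. The part of such shifts in the results was not tested.

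In DMSO with water, the complex I genes summed to 735 ± 31.4 CPM (SD, n = 3), the complex V genes to 394 ± 20.7, the complex IV genes to 177 ± 12.3, the complex II genes to 175 ± 16.6, the assembly factors to 153 ± 3.48 and the complex III genes to 131 ± 6.88. The sum of complex II came largely from Sdha, the flavin subunit, at 86.2, 107 and 92.98 CPM. Divided by gene length, the highest levels in this group were those of Atp5g3, which encodes the ring subunit c (6.15 ± 0.87 CPM per kb, SD, n = 3), Atp5a1, the alpha subunit of the ATP synthase head (5.81 ± 1.37 CPM per kb), Cox7c (5.73 ± 1.22 CPM per kb) and Ndufb10 (5.69 ± 1.32 CPM per kb). The means of these 4 differed by less than 1 SD and have no order. At the other end were isoforms known from other tissues: Cox6a2 and Cox7a1, the heart and muscle forms, at 0.317 ± 0.052 and 0.085 ± 0.039 CPM per kb, and the testis forms Cox6b2 and Cox7b2 at 0.311 ± 0.023 and 0.033 ± 0.0055 CPM per kb. 

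The 6 members that could not be tested were Ndufa4l2 (33 reads over the 20 libraries), Cox4i2 (105 reads), Cox8c (7 reads), Ndufs5 (3 reads), Cox8b (1 read) and Ndufb4c (0 reads). Ndufa4l2 and Cox4i2 are isoforms induced by low oxygen, and Cox8b and Cox8c are forms of heart and testis. Ndufs5, a complex I subunit made in all tissues, shared 5453 of its 5478 bases with the gene BC002163 on the same strand, and Ndufb4c lay wholly inside Mroh5 on its strand. In this table all 346 genes that lie wholly inside another gene of their own strand had 0 reads, against 18 of 346 that lie inside a gene of the opposite strand only. The values of Ndufs5 and Ndufb4c therefore say nothing about their transcription.

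The sequences before 6 transcription starts are shown because they carry the letters by which nuclear respiratory genes are best known, the NRF1 motif and the ETS motif CCGGAAGT, which is read by GABP among others, and because their genes moved in different ways after bicuculline. Each line gives the 150 bases before the start in RefSeq (mouse GRCm38.p6), read 5′ to 3′ on the strand of the gene, with NRF1 and ETS matches on either strand in capitals. The NRF1 motif is the near palindrome in capitals in the lines of Ndufa11, Ndufs6, Sdha and Atp5h, with its sixth base free. In the line of Ndufs6 the match is on the opposite strand, so as printed its free base lies 1 place earlier.
Ndufa11 (chr17:56717612-56717761, plus strand): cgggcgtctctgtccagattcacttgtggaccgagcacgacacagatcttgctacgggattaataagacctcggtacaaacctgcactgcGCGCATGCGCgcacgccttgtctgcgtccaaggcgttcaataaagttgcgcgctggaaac
Ndufs6 (chr13:73328483-73328632, minus strand): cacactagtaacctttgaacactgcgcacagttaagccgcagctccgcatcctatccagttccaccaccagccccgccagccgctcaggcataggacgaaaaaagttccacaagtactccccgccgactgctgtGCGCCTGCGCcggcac
Sdha (chr13:74350241-74350390, minus strand): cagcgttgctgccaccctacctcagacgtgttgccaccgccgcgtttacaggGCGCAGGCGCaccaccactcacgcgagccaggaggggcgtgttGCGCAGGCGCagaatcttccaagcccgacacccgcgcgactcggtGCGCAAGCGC
Uqcr11 (chr10:80406822-80406971, minus strand): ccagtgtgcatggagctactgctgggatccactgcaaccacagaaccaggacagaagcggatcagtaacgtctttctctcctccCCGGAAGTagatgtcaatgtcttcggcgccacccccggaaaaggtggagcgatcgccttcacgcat
Uqcrh (chr4:116075071-116075220, minus strand): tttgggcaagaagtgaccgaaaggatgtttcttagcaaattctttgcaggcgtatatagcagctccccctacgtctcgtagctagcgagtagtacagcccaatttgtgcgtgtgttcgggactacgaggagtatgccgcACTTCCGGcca
Atp5h (chr11:115419920-115420069, minus strand): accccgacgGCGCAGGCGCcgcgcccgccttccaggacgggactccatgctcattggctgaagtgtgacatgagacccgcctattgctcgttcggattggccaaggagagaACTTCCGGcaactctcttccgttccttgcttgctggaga
The NRF1 match of Ndufa11 reads the same on both strands, Sdha holds 3 NRF1 matches, and Atp5h is the member with both motifs. Ndufa11, Ndufs6, Uqcr11 and Atp5h were lower after bicuculline in 3 or all 4 comparisons, Sdha in 1, while Uqcrh, with an ETS match close to its start, was higher at 1 h.

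Of the 94 members, 76 had an entry in the RefSeq promoter table, which covers 250 bases before to 50 bases after a start, and 6 motifs were searched there on both strands. The NRF1 motif was found in 18 of the 76 members (23.7%) and in 6.62% of all 18317 promoters of genes in the count table. The YY1 motif was found in 5 members (6.58%) and in 1.26% of all promoters. The ETS motif stood in 5 members (6.58%, against 5.33% of all), the Sp1 motif GGGGCGGGG in 13 (17.1%, against 15.4%), the cAMP response element TGACGTCA in 4 (5.26%, against 2.37%) and the AP-1 motif TGANTCA in 6 (7.89%, against 7.39%). No motif contains another. Among the 28 members with a promoter entry that were lower in 3 or 4 of the bicuculline comparisons, 8 held the NRF1 motif, and among the 25 that were called lower in none, 3 did. In the same order the ETS motif stood in 3 and 2, Sp1 in 5 and 4, YY1 in 1 and 2, the cAMP response element in 1 and 2 and AP-1 in 1 and 3. These differences were not tested. A match is a run of letters and was not tested for binding.

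In DMSO, the nascent RNA of most complex I and complex V genes was lower with bicuculline than with water at both times. After 1 h in DMSO, 47 of the 88 tested members fell and 4 rose (58.0% called), where 44.6% of the 16959 genes tested were called, 24.5% lower and 20% higher (edgeR quasi-likelihood test, Benjamini-Hochberg adjusted p under 0.05 over all genes). After 4 h in DMSO, 45 fell and 1 rose, where 49.2% of all genes were called, 25.5% lower and 23.7% higher. With MM401, 34 fell and 4 rose after 1 h, against 39.9% called among all genes (21.8% lower, 18.1% higher), and 17 fell and 3 rose after 4 h, against 44.6% called (21.7% lower, 23% higher). The share of members that fell at 4 h under MM401, 19.3%, stood beside 21.7% of all genes, and in the other 3 comparisons it was 53.4%, 51.1% and 38.6%. These shares were not tested against each other, and with a trend on gene length removed within each library 45, 36, 39 and 29 members were called. Those 4 counts stand without the share of all genes called in that fit, so they cannot be set against a background. The 20 calls at 4 h under MM401 became 13 without MM401 bicuculline replicate 1, 13 without water replicate 1 and 11 without water replicate 2, and 31 when only those 5 libraries were fitted. In these mixed cultures, fewer cells of a type and less new RNA per cell cannot be told apart.

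The median log2 fold change of the members was -0.32 after 1 h and -0.27 after 4 h in DMSO, and -0.16 and -0.12 under MM401, beside -0.038, -0.024, -0.0018 and 0.016 over all genes. Of the 88 members, 78, 75, 67 and 60 were below 0 in these 4 comparisons. In all of them together, 53 were below 0 (60.2%, against 29% of all tested genes). The 12 called lower in each of the 4 (13.6%, against 9.59% of all tested genes) included Ndufa11, Ndufa7, Ndufab1, Ndufb3, Ndufb5, Ndufv2, Ndufaf6, Sdhc, Uqcr11, Atp5c1 and Atp5j2. Another 8 rose in at least 1 comparison (9.09%, against 37.3%), one of which, Ndufaf5, also fell in another, and 25 were called in none (28.4%, against 27.2%). Counting only the 74 tested members that share no base with another gene, 43, 41, 34 and 17 were called. The same fit called 44.6%, 49.2%, 39.9% and 44.6% of all tested genes. The 2 DMSO comparisons share their water libraries and are not independent of each other. With plain library sizes in place of TMM scaling, the median of all genes moved to -0.23 and -0.30 in DMSO and to -0.21 and -0.059 under MM401, and that of the members to -0.51, -0.55, -0.37 and -0.19. The rising members then numbered 1, 0, 1 and 1. The members that fell and the shares of all genes called with that scaling are not given beside them.

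**Figure D1:**
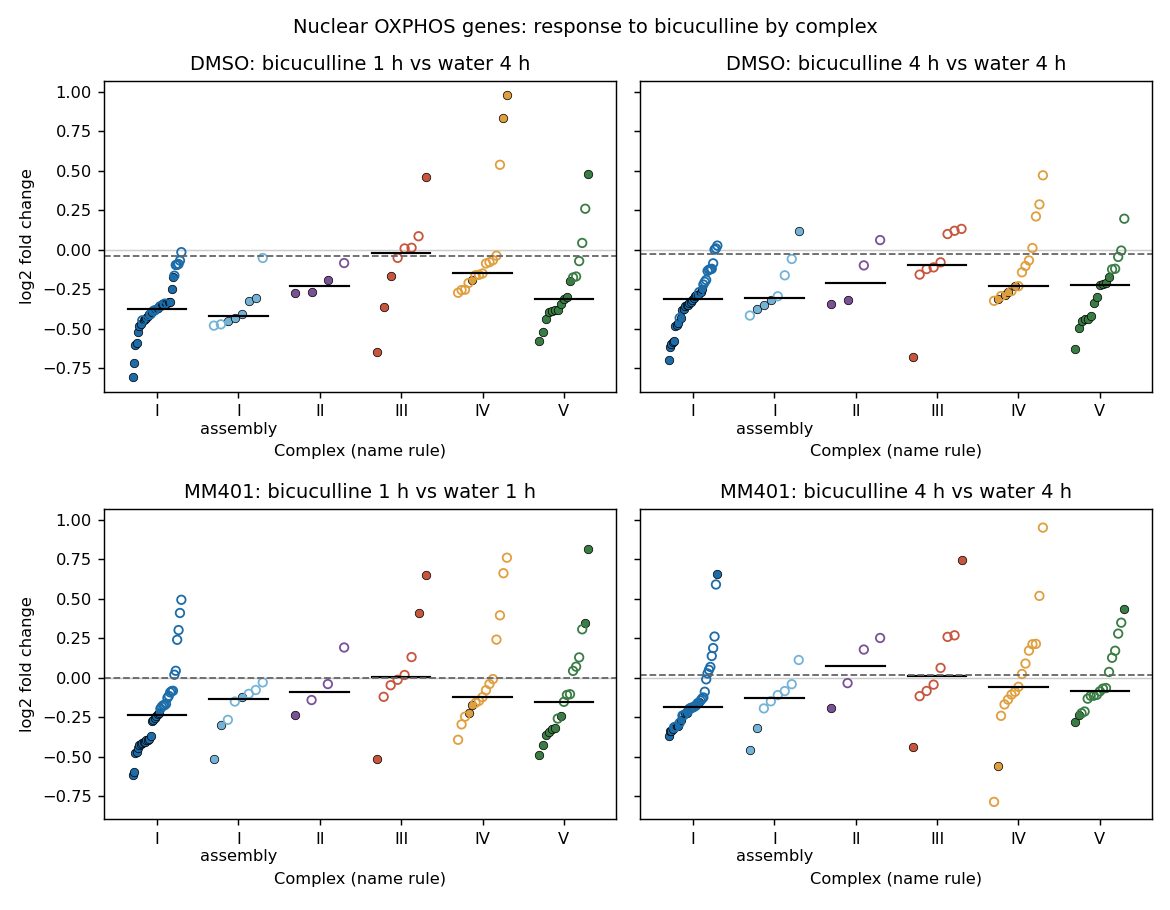
Log2 fold change of each of the 88 tested members, by complex, in the 4 comparisons of bicuculline with water; filled points passed the edgeR test, open points did not, short bars are the median of a complex and the dashed line is the median of all 16959 genes tested. Complex I points lie almost wholly below the dashed line in DMSO, while complex III and IV spread to both sides.

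Most complex I subunits fell in DMSO. Complexes were assigned by gene name alone, and Ndufa4, lower in 3 comparisons, is counted in complex I by its name. Of the 36 tested, 24 fell after 1 h and 23 after 4 h in DMSO, with none higher. Under MM401 20 fell after 1 h, and 10 fell and 1 rose after 4 h. The shares that fell were 66.7%, 63.9%, 55.6% and 27.8%, where 24.5%, 25.5%, 21.8% and 21.7% of all genes fell, so the last was near the background. The medians were -0.37, -0.31, -0.24 and -0.19. The summed level of complex I was 699 to 756 CPM in DMSO with water, 579 to 633 CPM after 1 h of bicuculline and 603 to 639 CPM after 4 h, so the groups did not overlap. Under MM401 it was 682 to 694 CPM with water at 1 h against 563 to 641 CPM with bicuculline, and 696 to 716 against 606 to 640 CPM at 4 h, again without overlap.

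The 7 nuclear core subunits carry the flavin, the iron-sulfur clusters and part of the quinone site. Of these, 5 fell at each time in DMSO, 3 after 1 h under MM401 and 2 after 4 h, the last a share of 28.6%, near the 21.7% of all genes. Ndufv2, which carries an iron-sulfur cluster beside the flavin site, fell in all 4 comparisons. It read 59.7, 60.8 and 59.4 CPM in DMSO with water, 49.5, 44.8 and 47.4 CPM after 1 h of bicuculline and 50.3, 46.5 and 50.3 CPM after 4 h (log2 fold change -0.34, SE 0.058, adjusted p = 4.93e-05 and -0.29 (SE 0.058, adjusted p = 0.000238)). All these bicuculline libraries lay below all the water libraries. Under MM401 the changes were -0.28 (SE 0.058, adjusted p = 0.00056) and -0.34 (SE 0.064, adjusted p = 0.000198). Ndufs1, the largest core subunit, fell after 1 h in DMSO, from 67.7, 71.97 and 62.4 to 57.4, 56.3 and 56.8 CPM (log2 fold change -0.25, SE 0.07, adjusted p = 0.00643). That call was lost without the DMSO water replicate 2 (adjusted p = 0.0920). The 3 other comparisons gave -0.12, -0.12 and -0.13 without passing the test, of which the first passed with plain library sizes or upper quartile factors (adjusted p = 0.000281 and 0.0314) and the second with plain library sizes (adjusted p = 0.00263). The first also passed without DMSO bicuculline replicate 2 or DMSO water replicate 3 (adjusted p = 0.0474 and 0.0282), and the second without MM401 bicuculline replicate 3 (adjusted p = 0.033). Ndufv1, the NADH-binding flavoprotein, fell after 4 h in DMSO, from 8.66, 12.1 and 10.3 to 5.84, 7.74 and 7.02 CPM (log2 fold change -0.60, SE 0.15, adjusted p = 0.00267). It gave values of -0.36 at 1 h in DMSO and 0.018 and -0.20 under MM401 that did not pass. The first passed with plain library sizes (adjusted p = 0.0105), without DMSO bicuculline replicate 2 or without DMSO water replicate 1 (adjusted p = 0.00872 and 0.0179). The replicate block called it as well.

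Among the accessory subunits, Ndufa11, which sits in the membrane arm (chr17:56717761-56724248, plus strand, coordinates of the deposited table on mm10), had the largest fall of all members after 1 h in DMSO. It read 3.43, 3.51 and 3.93 CPM in DMSO with water, 2.16, 1.98 and 2.07 CPM after 1 h of bicuculline and 2.37, 2.4 and 2.51 CPM after 4 h. Every bicuculline library was below every water library (log2 fold change -0.81, SE 0.11, adjusted p = 2.94e-06 at 1 h; -0.58 (SE 0.11, adjusted p = 0.000103) at 4 h). With MM401 it read 3.67, 3.35 and 3.2 CPM with water at 1 h against 2.42, 2.15 and 2.199 CPM with bicuculline (log2 fold change -0.60, SE 0.11, adjusted p = 0.000148). At 4 h it read 3.38 and 3.197 against 2.71, 2.58 and 2.698 CPM (log2 fold change -0.30, SE 0.12, adjusted p = 0.0433). The last call was lost under DESeq2, with no filter, all 21 libraries or only the groups compared, and without any single library of that comparison (adjusted p from 0.0531 to 0.172).

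Ndufs6, a zinc-binding subunit needed late in assembly, had the largest complex I fall after 4 h in DMSO. Its water libraries read 7.61, 10.7 and 11.5 CPM and its bicuculline libraries 6.204, 6.3 and 5.695 CPM at 1 h and 6.07, 5.75 and 6.61 CPM at 4 h, without overlap (log2 fold change -0.71, SE 0.13, adjusted p = 0.000175 and -0.70 (SE 0.13, adjusted p = 0.00017)). Under MM401 it fell at 1 h (log2 fold change -0.62, SE 0.14, adjusted p = 0.00104), and its 4 h value was -0.31 (SE 0.15, adjusted p = 0.0971). Ndufb5, another membrane arm subunit, read 23.2, 26.3 and 25.6 CPM in DMSO with water, 17.7, 19.7 and 17.9 CPM at 1 h and 18.3, 19.1 and 18.4 CPM at 4 h of bicuculline. Its falls in the 4 comparisons were of like size, -0.44, -0.43, -0.41 and -0.37, with SE of 0.067 to 0.074. This was the largest complex I fall under MM401 at 4 h (adjusted p = 0.000349). The single complex I rise was Ndufa2 under MM401 at 4 h, from 3.19 and 2.85 to 4.902, 5.2 and 4.205 CPM (log2 fold change 0.66, SE 0.24, adjusted p = 0.03). It lost its call when either MM401 water library at 4 h, or MM401 bicuculline replicate 1 or 2, was left out (adjusted p from 0.0649 to 0.189) and with plain library sizes (adjusted p = 0.0673). In DMSO it read 4.14, 4.99 and 4.302 CPM with water and 3.82, 5.22 and 4.41 CPM after 4 h.

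The complex I assembly factors build the enzyme without staying in it. Of the 8 tested, 5 fell after 1 h in DMSO, 3 fell and 1 rose after 4 h, and under MM401 3 and 2 fell. The shares that fell were 62.5%, 37.5%, 37.5% and 25%, the last near the 21.7% of all genes. Ndufaf6 fell each time: it read 17.3, 16.9 and 16.9 CPM in DMSO with water and 13.6, 12.2 and 11.5 CPM at 1 h (log2 fold change -0.45, SE 0.074, adjusted p = 3.63e-05). At 4 h it read 13.6, 12.4 and 13.4 CPM (log2 fold change -0.37, SE 0.074, adjusted p = 0.000224), and under MM401 it changed by -0.52 (SE 0.074, adjusted p = 9.75e-06) at 1 h and -0.46 (SE 0.082, adjusted p = 0.000102) at 4 h. Ndufaf5, which modifies the core subunit Ndufs7, was the one member called in both directions. It read 53.3, 50.2 and 50.5 CPM in DMSO with water, 40.7, 40.8 and 41.2 CPM after 1 h and 55.9, 57.1 and 54.2 CPM after 4 h of bicuculline, so the 3 groups formed 3 separate bands. The fall at 1 h was -0.33 (SE 0.048, adjusted p = 1.02e-05) and the rise at 4 h 0.12 (SE 0.048, adjusted p = 0.0402). The rise turned to -0.15 with plain library sizes and was lost without DMSO bicuculline replicate 1 or 2 or DMSO water replicate 2 or 3 (adjusted p from 0.0834 to 0.240). It was also lost with upper quartile factors, with no filter or a mean count of at least 100, with all 21 libraries, with only the groups compared and with the gene length correction (adjusted p from 0.0651 to 0.370). Between the bicuculline groups, 4 h exceeded 1 h by 0.45 (SE 0.048, adjusted p = 2.02e-07) in DMSO and 0.24 (SE 0.048, adjusted p = 0.000485) under MM401.

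**Figure D2:**
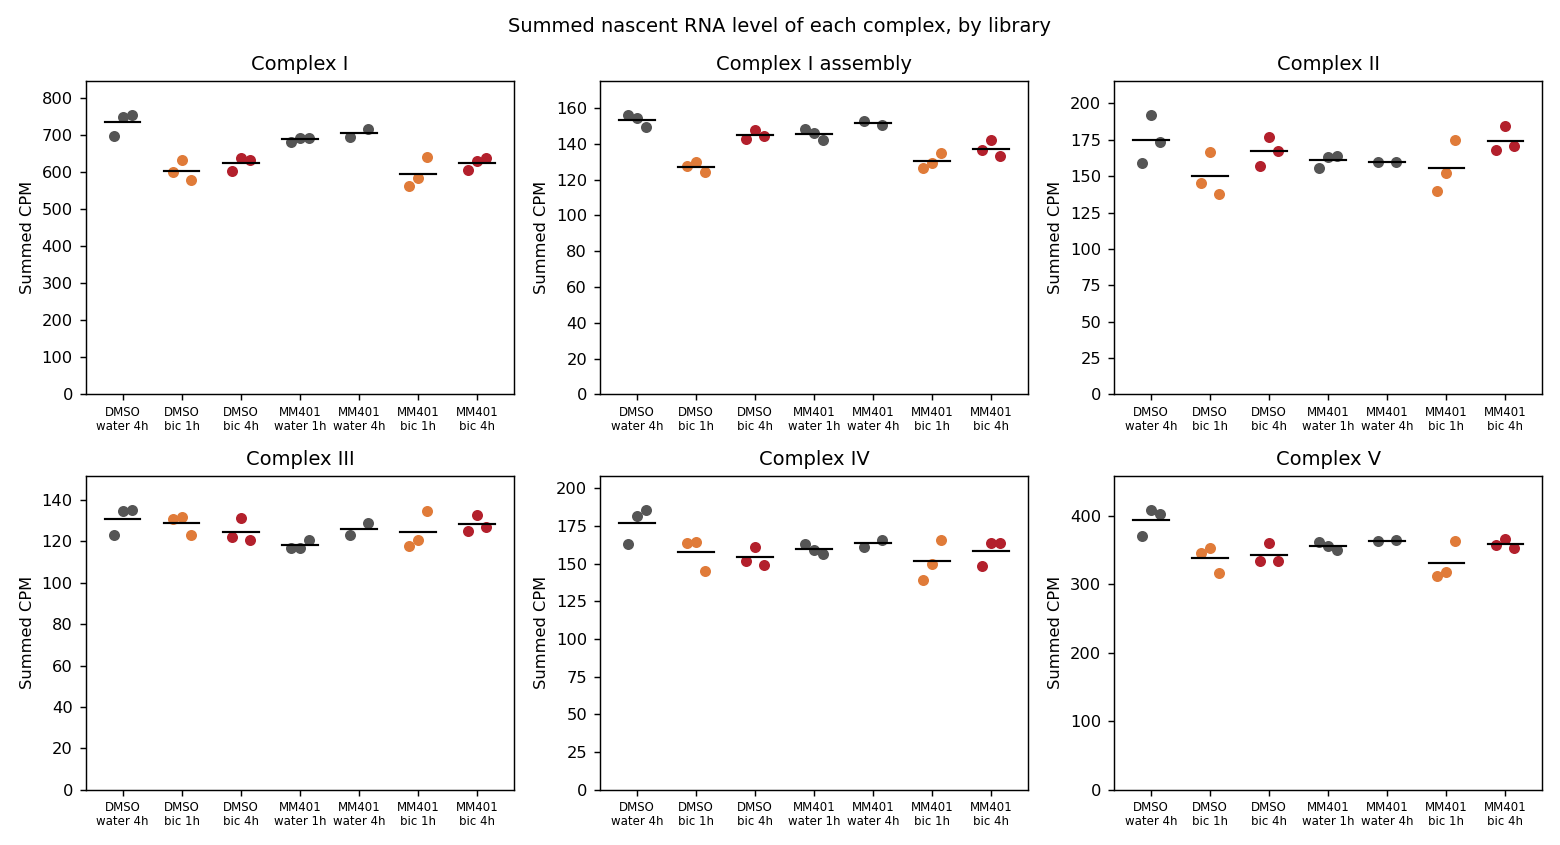
Summed CPM of the members of each complex in each of the 20 libraries, by group, with the group mean as a bar; axes start at 0. The complex I sums of all bicuculline libraries lie below those of all water libraries, whereas the complex II, III and IV sums of the 2 kinds of library overlap over the 7 groups.

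Complex II has 4 subunits, and 3 of them fell after 1 h in DMSO, 2 after 4 h, and 1 at each time under MM401. With 4 genes a single call is 25%, which is near the 21.8% and 21.7% of all genes that fell under MM401. Sdhc, which anchors the enzyme in the membrane, was the one that fell throughout. It read 39.9, 38.4 and 37.99 CPM in DMSO with water, 34.6, 31.98 and 35.3 CPM after 1 h and 31.6, 31.5 and 30.1 CPM after 4 h, a small change without overlap between groups (log2 fold change -0.19, SE 0.051, adjusted p = 0.004 and -0.32 (SE 0.051, adjusted p = 2.1e-05)). Under MM401 the falls were -0.24 (SE 0.051, adjusted p = 0.000861) and -0.19 (SE 0.057, adjusted p = 0.00833). Sdhd, the other anchor, fell at both times in DMSO, from 12.2, 13.4 and 13.6 to 12.1, 10.4 and 10.1 CPM at 1 h and 10.3, 10.5 and 10.1 CPM at 4 h (log2 fold change -0.26, SE 0.078, adjusted p = 0.0082 and -0.35 (SE 0.078, adjusted p = 0.000855)), and gave -0.14 and -0.035 under MM401, which did not pass. The 1 h call of Sdhc in DMSO was lost with all 21 libraries or only the groups compared (adjusted p = 0.118 and 0.103). That of Sdhd was lost with these settings, with the gene length correction and without DMSO bicuculline replicate 3 or DMSO water replicate 2 or 3 (adjusted p from 0.0506 to 0.0888).

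Sdha, the catalytic flavin subunit, read 74.6, 92.2 and 70.1 CPM after 1 h in DMSO against 86.2, 107 and 92.98 CPM with water. These ranges overlapped, and the fall (log2 fold change -0.27, SE 0.10, adjusted p = 0.0394) was lost when DMSO bicuculline replicate 1 or 3 or DMSO water replicate 2 or 3 was left out (adjusted p from 0.0646 to 0.256) and under DESeq2 (adjusted p = 0.0517). It was also lost with RLE factors, with no filter or a mean count of at least 100, with all 21 libraries and with only the groups compared (adjusted p from 0.0538 to 0.206). Its values after 4 h were 92.7, 108 and 98.3 CPM. This was 0.34 (SE 0.10, adjusted p = 0.017) above 1 h, a call lost without DMSO bicuculline replicate 1 or 3 at 1 h or replicate 2 at 4 h (adjusted p from 0.0694 to 0.136) and with plain library sizes or all 21 libraries (adjusted p = 0.177 and 0.172). Sdhb, the iron-sulfur subunit, passed in no comparison, at -0.084, -0.099, 0.19 and 0.18.

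Of the 8 complex III subunits, 3 fell and 1 rose after 1 h in DMSO, 1 fell after 4 h, and under MM401 1 fell and 2 rose at 1 h and 1 fell and 1 rose at 4 h. The shares that fell were 37.5%, 12.5%, 12.5% and 12.5%, beside 24.5%, 25.5%, 21.8% and 21.7% of all genes, so 3 of the 4 were below the background, and the rises were of 0 to 2 genes where 18.1% to 23.7% of all genes rose. After 1 h in DMSO the falls were in Uqcr10, Uqcr11 and Uqcrc2, and in the other 3 comparisons in Uqcr11 alone. The calls of Uqcr10 and Uqcrc2 were lost under DESeq2, with RLE factors, a mean count of at least 100, all 21 libraries, only the groups compared or the gene length correction (adjusted p from 0.0509 to 0.233). They were also lost without DMSO bicuculline replicate 3 or DMSO water replicate 2 or 3, among other libraries (adjusted p from 0.0522 to 0.334). Uqcr11 is a very small membrane subunit (chr10:80402996-80406821, minus strand). It read 4.86, 4.43 and 5.52 CPM in DMSO with water, 3.04, 3.65 and 2.7 CPM after 1 h and 2.92, 3.29 and 3.05 CPM after 4 h (log2 fold change -0.65, SE 0.14, adjusted p = 0.000754 and -0.68 (SE 0.14, adjusted p = 0.0004)). Under MM401 it went from 3.69, 4.04 and 4.29 to 2.49, 2.65 and 3.22 CPM at 1 h (log2 fold change -0.52, SE 0.15, adjusted p = 0.00685) and from 4.59 and 4.45 to 2.63, 3.498 and 3.87 CPM at 4 h (log2 fold change -0.44, SE 0.16, adjusted p = 0.0283). The groups did not overlap in any of the 4, but the last call was lost without MM401 bicuculline replicate 1 or either water library (adjusted p from 0.0617 to 0.148).

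Uqcrh, the hinge protein beside cytochrome c1 (chr4:116066964-116075070, minus strand), rose at 1 h in both pretreatments and was near the water level at 4 h. It read 15.8, 15.7 and 17.6 CPM in DMSO with water, 22.7, 21.6 and 23.4 CPM after 1 h and 17.9, 17.98 and 17.5 CPM after 4 h. The 1 h libraries stood above all those of the other DMSO groups, at log2 fold change 0.46, SE 0.06, adjusted p = 2.45e-06, and the 4 h libraries overlapped the water range (log2 fold change 0.12, SE 0.061, adjusted p = 0.106). Under MM401 it read 16.5, 16.7 and 16.6 CPM with water at 1 h, 22.3, 22.7 and 21.2 CPM with bicuculline at 1 h (log2 fold change 0.41, SE 0.061, adjusted p = 1.3e-05) and 17.5, 17.8 and 18.3 CPM at 4 h (log2 fold change 0.061, SE 0.069, adjusted p = 0.496). From 1 h to 4 h it fell by 0.34 on the log2 scale in DMSO (adjusted p = 0.000118) and by 0.31 under MM401 (adjusted p = 0.00043). The rise at 1 h in DMSO kept its call under every scaling tried, the smallest value being 0.27 with plain library sizes, whereas the rise under MM401 was then 0.20 and not called (adjusted p = 0.0543).

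Uqcrq, a small subunit that lies against cytochrome b, rose under MM401. It read 4.98, 4.27 and 4.18 CPM with water against 5.83, 5.82 and 9.29 CPM with bicuculline at 1 h (log2 fold change 0.65, SE 0.19, adjusted p = 0.00968). At 4 h it read 4.801 and 5.11 against 8.28, 9.801 and 6.89 CPM (log2 fold change 0.75, SE 0.21, adjusted p = 0.00762). The 1 h call was lost without MM401 bicuculline replicate 3, the highest library (adjusted p = 0.0798), and the 4 h call without MM401 water replicate 1 (adjusted p = 0.0705). Plain library sizes also ended the first (adjusted p = 0.0858) and all 21 libraries the second (adjusted p = 0.0606). In DMSO its water libraries read 5.64, 7.46 and 7.41 CPM and its values were 0.086 and 0.13, neither called. Uqcrc1, a core protein, and Uqcrfs1, the Rieske iron-sulfur protein, passed in none of the 4 comparisons, with values of 0.0088, -0.16, -0.049 and -0.12 for Uqcrc1 and -0.051, -0.11, 0.016 and 0.26 for Uqcrfs1. Uqcrc1 at 4 h in DMSO passed under several alternatives, with values of -0.43 with plain library sizes, -0.22 with upper quartile factors and -0.18 with a mean count of at least 100 (adjusted p = 0.000401, 0.00759 and 0.0252), and without DMSO water replicate 3 (adjusted p = 0.0341). Uqcrc1 was also called there with the replicate block. Its MM401 value passed at 1 h with plain library sizes (adjusted p = 0.0267) and at 4 h without MM401 water replicate 1 (adjusted p = 0.0238). Uqcrfs1 passed at 4 h in DMSO with plain library sizes, at -0.39 (adjusted p = 0.022), and at 4 h under MM401 when only the groups compared were fitted (adjusted p = 0.0415).

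Of the 15 tested complex IV genes, 1 fell and 2 rose after 1 h in DMSO and 4 fell after 4 h, and under MM401 2 and 1 fell. The shares that fell were 6.67%, 26.7%, 13.3% and 6.67%, where 24.5%, 25.5%, 21.8% and 21.7% of all genes fell, so that at 4 h in DMSO the count was at the background. Differences between the complexes were not tested. Its medians were below 0, at -0.15, -0.23, -0.12 and -0.059. Cox7b fell at 1 h in both pretreatments, from 25.2, 25.3 and 27.2 to 24.2, 21.4 and 22.4 CPM in DMSO (log2 fold change -0.19, SE 0.069, adjusted p = 0.0268) and by 0.18 under MM401 (adjusted p = 0.0481). The DMSO call was lost without DMSO bicuculline replicate 2 or 3 or DMSO water replicate 2 or 3 (adjusted p from 0.0806 to 0.169). It was also lost under DESeq2, with RLE factors, a mean count of at least 100, all 21 libraries or only the groups compared (adjusted p from 0.0649 to 0.133), and with the gene length correction, where the value was -0.081 (adjusted p = 0.408). The MM401 call held only with plain library sizes, upper quartile factors, the replicate block or without MM401 bicuculline replicate 3 (adjusted p from 0.0531 to 0.220 otherwise). At 4 h in DMSO the falls were in Cox6b1, Cox6c, Cox7a2 and Cox7a2l. The calls of Cox6b1 and Cox6c were lost with the gene length correction, at -0.10 and -0.14 (adjusted p = 0.28 and 0.321), and without DMSO bicuculline replicate 3 (adjusted p = 0.124 and 0.156). That of Cox6b1 was also lost under DESeq2, with all 21 libraries and without DMSO bicuculline replicate 1 or DMSO water replicate 2 (adjusted p from 0.0519 to 0.196), and that of Cox6c without DMSO water replicate 3 (adjusted p = 0.0949). Cox7a2, the form of subunit VIIa made outside muscle, read 12.4, 12.96 and 14.5 CPM with water and 11.3, 10.8 and 9.99 CPM with bicuculline (log2 fold change -0.31, SE 0.1, adjusted p = 0.0119). This call was lost without DMSO bicuculline replicate 3 (adjusted p = 0.0597) and with the gene length correction, where the value was -0.16 (adjusted p = 0.166). Cox7a2l, which helps join complexes III and IV, read 22.5, 25.7 and 26.4 and 19.6, 21.6 and 20.96 CPM (log2 fold change -0.27, SE 0.075, adjusted p = 0.00521). Under MM401 at 1 h its change was -0.23 (SE 0.075, adjusted p = 0.0204), lost without MM401 bicuculline replicate 1 or 2 or MM401 water replicate 2 (adjusted p from 0.0818 to 0.0941) and with all 21 libraries (adjusted p = 0.0684).

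The main subunits Cox4i1 and Cox5a were called in no comparison. Cox5a read 21.6, 20.3 and 21.04 CPM in DMSO with water, 20, 19.7 and 20.4 CPM after 1 h and 21.8, 20.5 and 21.1 CPM after 4 h. With plain library sizes its values were -0.25 at 1 h and -0.26 at 4 h in DMSO and -0.29 at 1 h under MM401, all called (adjusted p = 0.0144, 0.01 and 0.00592). Cox4i1 was among the members that varied most between replicates, at 15.2, 28.3 and 20.4 CPM with water and 11.3, 27.9 and 13.7 CPM after 1 h, and its value of -0.27 (SE 0.34, adjusted p = 0.556) did not pass. The 2 rises at 1 h in DMSO were both in isoforms of other tissues with low levels here. Cox6a2 read 0.239, 0.328 and 0.319 CPM with water and 0.739, 0.697 and 0.296 CPM with bicuculline, overlapping (log2 fold change 0.98, SE 0.33, adjusted p = 0.0189). Its call was lost without DMSO bicuculline replicate 1 or 2 or DMSO water replicate 1 (adjusted p from 0.0530 to 0.0918) and with plain library sizes (adjusted p = 0.0542). Cox6b2 read 0.424, 0.422 and 0.372 and 0.565, 0.962 and 0.611 CPM (log2 fold change 0.83, SE 0.30, adjusted p = 0.0278). This call was lost with plain library sizes (adjusted p = 0.0869) and without DMSO bicuculline replicate 2 or DMSO water replicate 2 or 3 (adjusted p from 0.0525 to 0.207). Cox7b2 fell under MM401 at 4 h, from 4.23 and 3.97 to 2.95, 3.27 and 2.17 CPM (log2 fold change -0.56, SE 0.15, adjusted p = 0.00558). Cox7a1 passed in no comparison, and its largest value against water was -0.79 (SE 0.50, adjusted p = 0.202).

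Of the 17 tested genes of the ATP synthase, complex V, 11 fell and 1 rose after 1 h and 12 fell after 4 h, with medians of -0.31 and -0.22. Under MM401 7 fell and 2 rose after 1 h, and 2 fell and 1 rose after 4 h, with medians of -0.15 and -0.087. The shares that fell were 64.7%, 70.6%, 41.2% and 11.8%, beside 24.5%, 25.5%, 21.8% and 21.7% of all genes, so the last was below the background. Its summed level was 371 to 409 CPM in DMSO with water against 317 to 354 CPM after 1 h and 333 to 360 CPM after 4 h, without overlap. Under MM401 the sums overlapped at both times, at 350 to 361 against 312 to 364 CPM at 1 h and 363 to 365 against 354 to 366 CPM at 4 h.

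Within the catalytic head and its shaft the subunits parted. Atp5c1, the gamma subunit that turns inside the head (chr2:10056030-10080510, minus strand), fell in all 4 comparisons. It read 66.3, 64.4 and 67.8 CPM in DMSO with water, 53.01, 52.98 and 55.2 CPM after 1 h and 55.8, 56.7 and 57.7 CPM after 4 h (log2 fold change -0.30, SE 0.049, adjusted p = 3.39e-05 and -0.22 (SE 0.049, adjusted p = 0.000638)). Under MM401 it went from 64.8, 68.4 and 65.8 to 52.3, 53.6 and 53.4 CPM at 1 h and from 65.8 and 71.7 to 55.7, 58.7 and 60.4 CPM at 4 h (log2 fold change -0.32, SE 0.049, adjusted p = 1.78e-05 and -0.24 (SE 0.054, adjusted p = 0.0011)). Replicates lay close together, and no bicuculline library reached the lowest water library.

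Atp5d, the delta subunit at the foot of the same shaft (chr10:80142274-80145828, plus strand), rose instead. It read 8.42, 11.3 and 10.7 CPM in DMSO with water and 13.9, 15.6 and 13.1 CPM after 1 h (log2 fold change 0.48, SE 0.10, adjusted p = 0.000562). After 4 h it read 10.5, 12.3 and 12.1 CPM, which overlapped water (log2 fold change 0.20, SE 0.10, adjusted p = 0.117). Under MM401 it read 7.71, 9.07 and 8.19 against 13.5, 14.7 and 15.7 CPM at 1 h (log2 fold change 0.81, SE 0.10, adjusted p = 1.89e-06) and 9.08 and 9.37 against 12.4, 13.3 and 11.7 CPM at 4 h (log2 fold change 0.43, SE 0.12, adjusted p = 0.00462). With plain library sizes the DMSO value at 1 h was 0.29 and the MM401 value at 4 h was 0.36, neither called (adjusted p = 0.0698 and 0.0575). The latter call was also lost without MM401 water replicate 1 (adjusted p = 0.0501). Atp5d lies wholly inside the span that the table gives to Bc1 on the opposite strand. Of the genes nested in this way on opposite strands, 18 of 346 had 0 reads. Their median total was 321.5 reads, against 5471 for genes that overlap no other gene. Whether some reads counted for Atp5d came from Bc1 was not tested.

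Atp5a1 and Atp5b, the alpha and beta subunits that form the catalytic sites, did not fall in any of the 4 comparisons as fitted. With plain library sizes Atp5b at 4 h in DMSO was called lower (-0.40, adjusted p = 0.0121), and with only the groups compared Atp5a1 was called higher under MM401 at 1 h and 4 h (0.31 and 0.33, adjusted p = 0.0433 and 0.0326). Atp5b read 30.8, 38.3 and 31.4 CPM with water and 32.4, 39.6 and 31.6 CPM after 1 h in DMSO. It rose under MM401 at 1 h from 27.9, 26.5 and 26.6 to 30.1, 32.7 and 39.8 CPM (log2 fold change 0.34, SE 0.11, adjusted p = 0.0176). This call was lost without MM401 bicuculline replicate 3 (adjusted p = 0.102) and with plain library sizes (0.428). Atp5a1 gave -0.17, -0.045, 0.31 and 0.35, with SE of 0.18 to 0.20. In the membrane part, Atp5mpl, a small proteolipid, had the largest complex V fall after 1 h, from 10.2, 9.47 and 11.7 to 6.798, 7.39 and 6.84 CPM in DMSO (log2 fold change -0.58, SE 0.10, adjusted p = 8.61e-05). Under MM401 it went from 9.43, 9.67 and 9.02 to 6.44, 6.25 and 7.27 CPM (log2 fold change -0.49, SE 0.10, adjusted p = 0.000566). Atp5k, subunit e, had the largest complex V fall after 4 h in DMSO, from 2.01, 2.01 and 2.23 to 1.47, 1.51 and 1.09 CPM (log2 fold change -0.63, SE 0.17, adjusted p = 0.00476). Its MM401 water libraries, 1.37 and 1.41 CPM at 4 h, were already at the level of the bicuculline libraries, 1.52, 1.33 and 1.42 CPM. Atp5j2, subunit f, fell in all 4 comparisons, by 0.40, 0.34, 0.24 and 0.28. The last call was lost without MM401 water replicate 2 (adjusted p = 0.0704), and the one at 1 h under MM401 with all 21 libraries and without MM401 bicuculline replicate 2 or MM401 water replicate 3 (adjusted p from 0.0541 to 0.104).

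**Figure D3:**
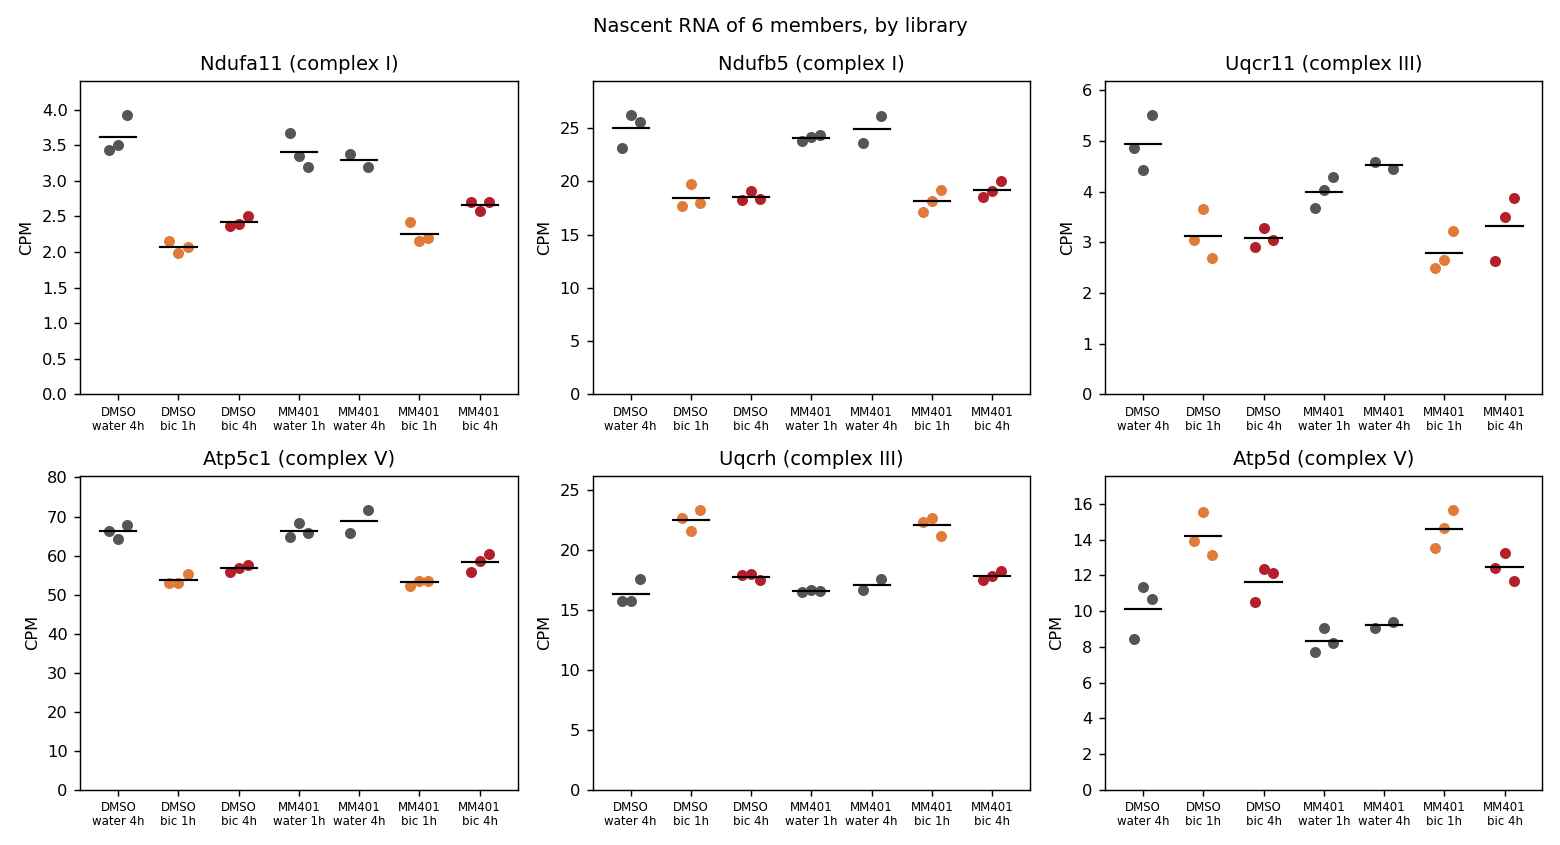
CPM of Ndufa11, Ndufb5, Uqcr11, Atp5c1, Uqcrh and Atp5d in each of the 20 libraries, by group, with group means as bars; axes start at 0. Grey points are water, orange points bicuculline at 1 h and red points bicuculline at 4 h; within each pretreatment, group means of Uqcrh and Atp5d are highest at 1 h of bicuculline, and those of the other 4 are lower with bicuculline than with water.

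Between 1 h and 4 h of bicuculline few members moved. In DMSO 2 rose and 2 fell, where 34.2% of all genes were called (19.1% higher, 15.2% lower): Ndufaf5 and Sdha rose, Uqcrh and Atp5d fell (log2 fold change -0.29, SE 0.10, adjusted p = 0.0326 for Atp5d). The last was lost without DMSO bicuculline replicate 1 or 2 at 1 h or replicate 1 at 4 h (adjusted p from 0.0519 to 0.165). Under MM401 14 rose and 1 fell, where 33.6% of all genes were called (17.5% higher, 16% lower), and the median of the members was 0.12 beside 0.025 over all genes. Of the 14, 6 were complex I genes and 5 complex V genes. Ndufa6, an accessory subunit of complex I, rose most in its complex, from 8.38, 7.35 and 7.91 CPM at 1 h to 10.6, 10.96 and 10.5 CPM at 4 h (log2 fold change 0.44, SE 0.10, adjusted p = 0.00197). Atp5mpl rose from 6.44, 6.25 and 7.27 to 9.52, 7.31 and 8.73 CPM (log2 fold change 0.36, SE 0.10, adjusted p = 0.01), lost without MM401 bicuculline replicate 2 at 1 h or replicate 1 at 4 h (adjusted p = 0.0529 and 0.0751) and with all 21 libraries (adjusted p = 0.103). Uqcrb, which binds ubiquinone in complex III, rose by 0.29 (SE 0.11, adjusted p = 0.0496) and Cox7b by 0.20 (SE 0.069, adjusted p = 0.0282). The first was lost without any single bicuculline library other than replicate 3 at 1 h (adjusted p from 0.0631 to 0.199), and the second without replicate 1 at 1 h or any 4 h library (adjusted p from 0.0547 to 0.152). Both were also lost under DESeq2, with upper quartile factors, a mean count of at least 100, all 21 libraries or the gene length correction (adjusted p from 0.0605 to 0.164 for Uqcrb and from 0.0509 to 0.135 for Cox7b). The 14 rises became 10 with DESeq2 and 8 with upper quartile scaling, and the 15 calls became 7 without MM401 bicuculline replicate 2 at 1 h and 8 without replicate 3 at 4 h. With all 21 libraries the 15 became 5. In DMSO the 4 calls became 7 without bicuculline replicate 3 at 4 h. Calls there also numbered 7 under DESeq2, RLE or upper quartile factors, a mean count of at least 100, the replicate block or the gene length correction.

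MM401 against DMSO gave no called member, whether under water (4 h) or under bicuculline (1 h, 4 h). In these 3 comparisons edgeR called 0.0826%, 0.0059% and 0% of all genes, and DESeq2 called no member either. At an unadjusted p under 0.05 there were 3, 3 and 7 members of 88, where 12.9%, 3.18% and 7.72% of all genes passed. In that order the member medians were -0.088, -0.037 and 0.059, beside -0.014, 0.010 and -0.0032 over all genes, and 70, 55 and 28 members were below 0. With water the lowest unadjusted p was that of Atp5k, at 2.01, 2.01 and 2.23 CPM in DMSO and 1.37 and 1.41 CPM under MM401 (log2 fold change -0.58, SE 0.20, adjusted p = 0.237; 95% interval -0.98 to -0.19). Its 2 groups did not overlap, and the difference did not pass. The largest falls there were Ndufb10 at -0.63 (SE 0.44), Cox4i1 at -0.59 (SE 0.40) and Cox6a2 at -0.59 (SE 0.45), and the largest rises Cox7b2 at 0.23 (SE 0.15), Cox7a1 at 0.14 (SE 0.45) and Cox5a at 0.084 (SE 0.079). With bicuculline at 1 h the largest falls were Cox7a1 at -0.45 (SE 0.39), Atp5e at -0.37 (SE 0.19) and Ndufb7 at -0.25 (SE 0.16), and the largest rises Ndufb10 at 0.37 (SE 0.39), Ndufs8 at 0.16 (SE 0.32) and Sdhb at 0.16 (SE 0.17). With bicuculline at 4 h they were Cox7a1 at -0.94 (SE 0.43), Cox7b2 at -0.27 (SE 0.14) and Ndufs8 at -0.19 (SE 0.33), and Ndufa3 at 0.29 (SE 0.13), Cox5b at 0.27 (SE 0.14) and Ndufb7 at 0.27 (SE 0.16). None of these values passed (smallest adjusted p over the members 0.237 with water, 0.999 and 0.639 with bicuculline). Without DMSO water replicate 1, 1 member was called with water, and the share of all genes called in that fit is not given beside it.

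The difference between the 4 h responses, MM401 minus DMSO, was tested as an interaction. No member was called and none of all genes was, while 15 of the 88 members and 15% of all genes had an unadjusted p under 0.05. The median interaction was 0.18 over the members (0.0061 with a trend on gene length removed) and 0.026 over all genes, and 17 members were below 0. The smallest p were those of Atp5g2 (log2 fold change 0.35, SE 0.12, adjusted p = 0.233), a ring subunit gene, Atp5h, the peripheral stalk subunit d (log2 fold change 0.43, SE 0.15, adjusted p = 0.237), and Sdhd (log2 fold change 0.31, SE 0.12, adjusted p = 0.251). The largest values were Cox6a2 at 0.74 (SE 0.57), Ndufb10 at 0.67 (SE 0.58) and Atp5k at 0.66 (SE 0.27), and the lowest Cox7a1 at -1.07 (SE 0.63), Cox7b2 at -0.49 (SE 0.21) and Ndufs4 at -0.17 (SE 0.068). Without DMSO water replicate 1, 2 members were called, and the share of all genes called in that fit is not given beside them. Thus 45 members fell at 4 h in DMSO and 17 under MM401, 14 of them in both (31.1% of the first, 82.4% of the second). In the fit to all 20 libraries no member's response was shown to differ. Summed over all members, the DMSO water libraries read 1671, 1823 and 1804 CPM and the MM401 water libraries at 4 h 1657 and 1687 CPM. With bicuculline at 4 h the sums were 1512 to 1615 CPM in DMSO and 1542 to 1620 CPM under MM401. The part of the water libraries in the gap between 45 and 17 was not tested. Over all tested genes the shared falls at 4 h were 65.6% of those in DMSO and 77.3% of those under MM401. At 1 h, 33 were lower in both, 70.2% of the 47 in DMSO and 97.1% of the 34 under MM401, and over all tested genes the shares were 70.4% and 79.2%. The overlaps of members and of all genes were not tested against each other. The DMSO comparison there uses water at 4 h and the MM401 comparison water at 1 h. Across the 88 members the responses in DMSO and MM401, which share no library, correlated with Pearson's r = 0.695 and Spearman's rho = 0.641 at 1 h and 0.524 and 0.566 at 4 h, given as a description, since genes are not independent. Under water alone, 4 h against 1 h with MM401 called no member (1 at an unadjusted p under 0.05, 0 by DESeq2), where 0.867% of all genes were called (0.265% higher, 0.601% lower).

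**Figure D4:**
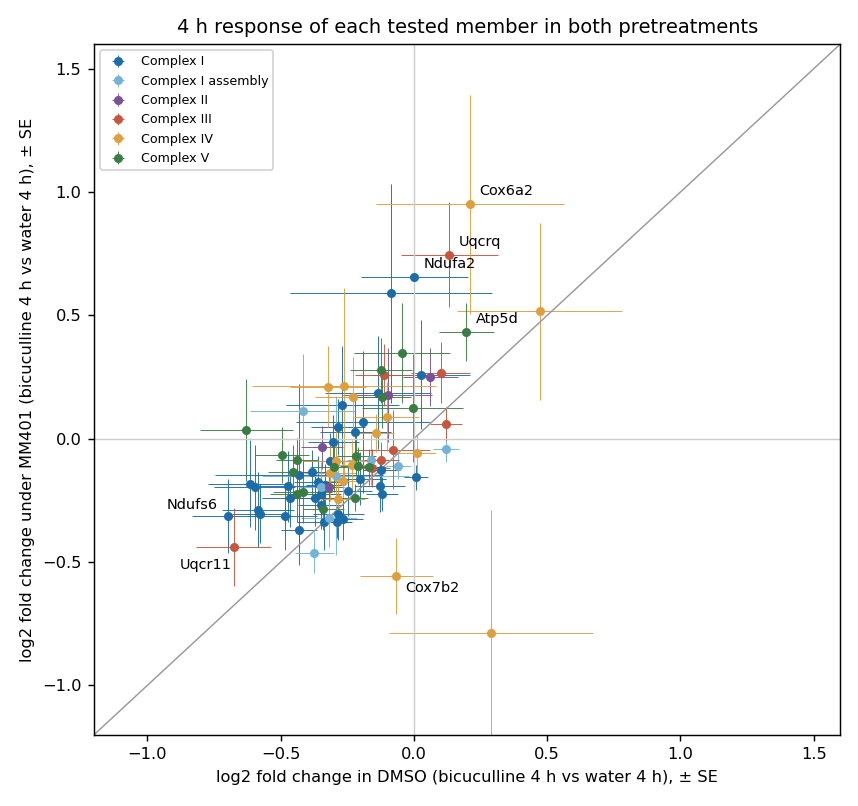
Log2 fold change after 4 h of bicuculline for each of the 88 tested members, in DMSO (x axis) and under MM401 (y axis), with SE bars from edgeR and the line of equal change; colours mark the complex. Most points lie above the line, by a median of 0.18, and no single member passed the test of the difference.

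Members are short genes, and in DMSO short genes as a whole were lower after bicuculline, while under MM401 the median of all genes under 5 kb was above 0. Their median length was 7.31 kb against 23.1 kb over all tested genes. Genes of 5 to 10 kb had a median log2 fold change of -0.20 after 1 h and -0.21 after 4 h in DMSO, where the 31 members of that length had -0.34 and -0.30. Under MM401 the same bin gave -0.10 and -0.023 over all genes and -0.17 and -0.13 over members. Genes over 50 kb had 0.14 and 0.17 in DMSO. The 29 members under 5 kb had -0.25 and -0.22 in DMSO and -0.079 and 0.089 under MM401, beside -0.18, -0.16, 0.029 and 0.13 over all genes of that length. With a trend on gene length removed within each library, the medians of the members in the 4 comparisons were -0.24, -0.16, -0.16 and -0.17.

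**Figure D5:**
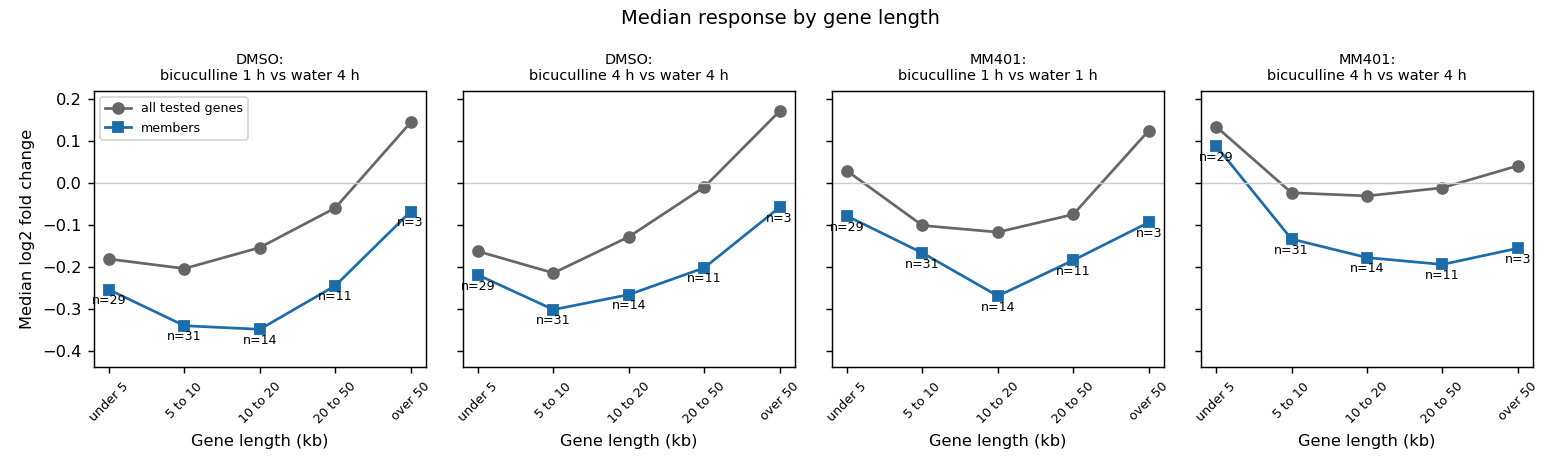
Median log2 fold change by gene length in the 4 comparisons of bicuculline with water, for all tested genes (grey circles) and for members (blue squares, with their number). Members lie below all genes of like length in each bin; the bin over 50 kb holds 3 members, and the bins of 10 to 20 and 20 to 50 kb hold 14 and 11.

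Genes that work with the members were taken as lists, whose counts stand beside the 24.5%, 25.5%, 21.8% and 21.7% of all genes that fell and the 20%, 23.7%, 18.1% and 23% that rose in the 4 comparisons. Of 33 tested respiratory chain partners and assembly factors of complexes II to V, 17, 16, 13 and 11 fell and 3, 3, 4 and 2 rose in the 4 comparisons, with medians of -0.30, -0.29, -0.21 and -0.13. Uqcc2, a complex III assembly factor, fell in each (-0.71 (SE 0.14, adjusted p = 0.000374) at 1 h and -0.93 (SE 0.14, adjusted p = 1.51e-05) at 4 h in DMSO), as did Cox18, which inserts a complex IV subunit into the membrane (-0.78 (SE 0.068, adjusted p = 3.7e-09) at 4 h in DMSO). Cycs, the gene of cytochrome c, rose instead at 1 h in DMSO (0.51 (SE 0.15, adjusted p = 0.00825)) and at both times under MM401 (0.58 and 0.50). Of 9 complex I assembly factors with other names, 7, 8, 4 and 6 fell and 1, 0, 0 and 0 rose, among them Tmem186 at -0.57 (SE 0.13, adjusted p = 0.000931) at 4 h in DMSO. The 13 mitochondrially encoded subunits are not rows of this table and are not analysed here.

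Of 16 genes of the tricarboxylic acid cycle and pyruvate dehydrogenase, 3, 1, 1 and 2 fell and 3, 4, 3 and 4 rose, and Mdh2, malate dehydrogenase, fell in all 4 (-0.37, -0.42, -0.41 and -0.40). Of 20 glycolysis genes, 3, 2, 0 and 0 fell and 7, 9, 8 and 12 rose, among them the glucose transporters Slc2a1 (2.11 (SE 0.11, adjusted p = 2.89e-12) at 1 h in DMSO) and Slc2a3 (1.68 (SE 0.12, adjusted p = 1.44e-09) at 4 h in DMSO). Of 16 tested regulators of mitochondrial gene transcription, 5, 6, 7 and 5 fell and 2, 4, 2 and 2 rose. Ppargc1a, the coactivator that raises respiratory gene transcription in many tissues, rose in all 4 (0.45 (SE 0.061, adjusted p = 3.47e-06) at 1 h and 0.42 (SE 0.061, adjusted p = 5.41e-06) at 4 h in DMSO; 0.42 and 0.23 under MM401). Of the related coactivators, Ppargc1b gave -0.10, -0.47, -0.34 and -0.64, called lower in all but the first, and Pprc1 gave 0.034, -0.34, -0.056 and -0.47, called lower at 4 h in both pretreatments. Tfam and Tfb2m, which serve transcription of the mitochondrial genome, fell in all 4, by 0.47 and 0.31 at 1 h in DMSO (adjusted p = 1.41e-05 and 0.0039). Nrf1 itself gave -0.085, 0.16, -0.049 and 0.086, called at 4 h in DMSO alone, and Gabpa -0.23, -0.12, -0.26 and -0.088, called at 1 h in both pretreatments.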

How the data were processed

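Nascent RNA labelled with bromouridine was sequenced from 21 cultures as 150 base paired-end reads, and 20 libraries were used. The deposited table holds raw read counts for whole genes, made by the authors; featureCounts, Bowtie2, UMI-tools, DESeq2, deepTools and the mm10 build are named in the submitters' processing notes, while versions, strand setting and annotation release are not given in the sources used here. Counts over whole genes include introns, so long genes collect more reads. Coordinates are those of the table, whose starts on the plus strand lie 1 base below RefSeq starts.

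From the counts, genes with at least 10 reads in enough libraries (edgeR's filterByExpr, 16959 genes) were scaled by TMM and fitted with group means over all 20 libraries in edgeR 4.0.16 (R 4.3.3, limma 3.58.1); p-values were Benjamini-Hochberg adjusted over all genes with a threshold of 0.05. Levels are TMM-scaled CPM. Fits were tested on simulated data. There were 3 libraries a group, and 2 for MM401 water at 4 h. The p-values rest on each gene's spread within groups over all 20 libraries, drawn toward that of other genes. Samples were grouped by the labels. Alternatives were DESeq2 1.42.0, other scalings and filters, a replicate block, a gene length correction, all 21 libraries, only the groups compared, members free of overlap and each library left out. The fit has no replicate block: the titles number the samples in sets by replicate, but of the comparisons with 3 same-numbered pairs only MM401 against DMSO with bicuculline at 4 h had every correlation of deviations over 0.1.

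The members, lists and tests were chosen with earlier results of these data known. Named were catalytic or core subunits, though not every core subunit of complex I, the called members with the largest rise and fall per complex in each comparison of times or of bicuculline with water, tissue-restricted isoforms, the 3 largest and 3 smallest values where no member was called, and up to 3 genes per list. Ndufv2, Cox6b1, Cox6c, Uqcr10, Uqcrc2, Nrf1, Gabpa, Ppargc1b, Pprc1, Tfb2m and further values of members already named were added after their values were seen. The values of 1 member are not reported here.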

Additional observations from a re-analysis of the deposited data

How the results depend on the processing

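Counts of called members were 51, 46, 38 and 20 in the 4 comparisons of bicuculline with water, in the order 1 h and 4 h in DMSO, then under MM401. The first 3 stayed within 1.5 times these counts under every alternative. Counts under the alternatives are given without the share of all genes called in each, so they cannot be set against a background. The fourth became 13 with all 21 libraries and 31 with only the groups compared. Leaving out each library in turn gave 36 to 51, 37 to 47, 27 to 37 and 11 to 22. For 4 h against 1 h of bicuculline, the 4 calls in DMSO became 7 with DESeq2, RLE factors, upper quartile factors, a mean count of at least 100, the replicate block or the gene length correction, and were 3 to 7 without 1 library; the 15 under MM401 became 5 with all 21 libraries and were 7 to 16 without 1 library. MM401 against DMSO gave 0 to 1 with water and 0 with bicuculline, the interaction 0 to 2 and the MM401 water times 0. The replicate block gave 53, 49, 40 and 25 in the comparisons with water, and 7 and 20 between times. Same-numbered libraries' deviations correlated from -0.229 to 0.241 (median 0.0885), and 10 of 27 correlations were over 0.1; only for MM401 against DMSO with bicuculline at 4 h were all 3 pairs over 0.1, where the block gave 0 calls. The block also called Ndufv1 at 1 h in DMSO (-0.36, adjusted p = 0.0243), Uqcrc1 at 4 h in DMSO (-0.16, adjusted p = 0.0447) and Sdha at 4 h under MM401 (0.25, adjusted p = 0.037), which did not pass in the same fit without it. Values that reversed were not called in the main setting, apart from Ndufaf5 at 4 h in DMSO. With plain library size the log2 fold change turned to -0.15 for Ndufaf5 at 4 h in DMSO, -0.19 for Ndufv1 at 1 h under MM401, -0.22 for Sdha at 4 h in DMSO, -0.015 for Sdhb at 1 h under MM401, -0.18 for Uqcrc1 at 1 h in DMSO, -0.19 for Uqcrfs1 at 1 h under MM401, -0.26 for Cox5a at 4 h in DMSO and -0.15 for Atp5b at 1 h in DMSO. With upper quartile factors the log2 fold change turned to -0.0041 for Ndufv1 at 1 h under MM401, -0.0027 for Sdha at 4 h in DMSO, -0.0025 for Uqcrc1 at 1 h in DMSO, -0.0062 for Uqcrfs1 at 1 h under MM401 and -0.053 for Cox5a at 4 h in DMSO. With the gene length correction the log2 fold change turned to 0.016 for Uqcrc1 at 1 h under MM401, 0.074 for Uqcrfs1 at 1 h in DMSO, 0.042 for Uqcrfs1 at 4 h in DMSO, 0.021 for Cox5a at 1 h in DMSO, 0.086 for Atp5a1 at 4 h in DMSO and 0.019 for Atp5b at 4 h in DMSO. With a mean count of at least 100 the log2 fold change turned to -0.0069 for Cox5a at 4 h in DMSO. With all 21 libraries the log2 fold change turned to -0.0086 for Cox5a at 4 h in DMSO. With only the groups compared the log2 fold change turned to -0.0088 for Cox5a at 4 h in DMSO. Leaving out 1 library gave values on both sides of 0, from -0.10 to 0.12 for Ndufv1 at 1 h under MM401, from -0.0062 to 0.14 for Sdha at 4 h in DMSO, from -0.14 to 0.049 for Sdha at 1 h under MM401, from -0.26 to 0.092 for Sdhb at 1 h in DMSO, from -0.26 to 0.035 for Sdhb at 4 h in DMSO, from -0.038 to 0.068 for Uqcrc1 at 1 h in DMSO, from -0.17 to 0.043 for Uqcrfs1 at 1 h in DMSO, from -0.12 to 0.082 for Uqcrfs1 at 1 h under MM401, from -0.78 to 0.011 for Cox4i1 at 1 h in DMSO, from -0.028 to 0.032 for Cox5a at 4 h in DMSO, from -0.16 to 0.022 for Cox5a at 4 h under MM401, from -0.36 to 0.062 for Atp5a1 at 1 h in DMSO, from -0.17 to 0.14 for Atp5a1 at 4 h in DMSO and from -0.068 to 0.18 for Atp5b at 1 h in DMSO. The causes were not tested. Reads limited the rarest isoforms: over the 20 libraries Cox7a1 had 242, Cox6a2 509 and Cox6b2 714, the fewest of the tested members.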

Other observations

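A few members varied widely between replicates. The median SD of log2 CPM within groups was 0.130 over the 88 tested members and 0.138 over all tested genes, but it was 0.48 for Ndufb10, an accessory subunit of complex I, 0.42 for Cox4i1, the main form of subunit IV, and 0.41 for Ndufs8, a core subunit. Ndufb10 read 10.4, 16.6 and 13.3 CPM in DMSO with water, 6.44, 17.04 and 7.27 CPM after 1 h of bicuculline and 7.76, 16.2 and 14.1 CPM after 4 h. Cox4i1 read 15.2, 28.3 and 20.4, 11.3, 27.9 and 13.7 and 12.2, 21.1 and 20.05 CPM in the same order, and Ndufs8 3.04, 5.88 and 4.501, 2.57, 5.42 and 2.03 and 2.44, 3.61 and 3.92 CPM. In these 3 genes replicate 2 was the highest in DMSO with water, after 1 h in DMSO and after 4 h under MM401, and in Ndufb10 and Cox4i1 also after 4 h in DMSO. Replicate 3 was the highest after 1 h under MM401, and the water libraries under MM401 lay close together, at 9.17, 9.47 and 9.89 CPM for Ndufb10 at 1 h. At the other end, the highest of the 20 libraries was 1.15 times the lowest for Ndufaf2, 1.19 times for Ndufs4, 1.22 times for Uqcrc1 and 1.27 times for Cox5a.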
